A study of Rattus norvegicus with 30 samples.

Results

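The genes described here are those of coagulation, fibrinolysis and the thrombin receptors, followed across the cortex (Cx) and the outer medulla (OM) of the rat kidney. The members were the entries of the deposited count table whose gene name was F3, Thbd, F2r, F2rl1, Plat, Plaur, Fga, Fgb or Fgg, and all 9 were found among 32545 genes. Tissue factor, the product of F3, starts the cascade that forms thrombin, and thrombin both turns fibrinogen into fibrin and acts on cells through protease-activated receptors. Thrombomodulin holds thrombin at the endothelial surface and turns it towards the anticoagulant protein C, while plasminogen activators and the urokinase receptor lie on the side that dissolves fibrin. In the kidney these proteins are known from glomerular cells, vascular endothelium and tubules, and the fibrinogen of plasma is made mainly by the liver.

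The study asked how the normal kidney responds to a high salt intake. Male Sprague-Dawley rats ate a 0.4% NaCl diet (LS) or were moved from it to a 4.0% NaCl diet for 14 days (HS14) or 21 days (HS21). Poly(A) RNA of the kidney was sequenced. Each of the 6 groups of tissue and diet held 5 libraries, numbered 1 to 5 for LS, 6 to 10 for HS14 and 11 to 15 for HS21. The labels give no age. The study states that the tissue came from rats other than those used for blood flow. Its methods nevertheless describe the kidney collection within the protocol of a flow probe and of catheters infused with heparinized saline. They give the surgical state of neither the LS nor the high-salt tissue groups, so whether these differed in surgery or heparin is not known.

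Total counts per library ran from 5408126 in OM HS14 replicate 10 to 21842843 in Cx HS14 replicate 9. Levels are given as CPM, the normalised read count per library, after TMM scaling over all 30 libraries. A difference is a log2 ratio ± SE from edgeR's quasi-likelihood test with 5 libraries in each group, fitted to all genes that passed a low-count filter. A gene was called when its P, adjusted over all genes tested by the Benjamini-Hochberg method, was under 0.05. Both high-salt groups of a tissue were compared with the same LS libraries, and the comparison of Cx HS21 with Cx HS14 reuses libraries of the others, so these results are not independent of each other.

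The dissection was checked on markers of nephron segments, and several libraries stood apart within their groups. The summed level of 4 thick ascending limb markers was 1349 to 1962 CPM in the Cx LS libraries and 10190.1 to 22001 CPM in the OM LS libraries. The 7 proximal tubule markers summed to 5679, 17288, 9168, 8694 and 1490.1 CPM in OM LS replicates 1 to 5. OM LS replicate 2 was the high value, and it lay above all 5 Cx LS libraries, which held 15520.2 to 17159 CPM. The same library held 353.6 CPM of Slc12a3, the sodium chloride cotransporter of the distal convoluted tubule, where the other OM LS libraries held 8.61 to 20.4 CPM. For each member tested, the edgeR log2 ratios to OM LS and of OM LS to Cx LS are therefore given with and without this library. OM LS replicate 5 held the fewest proximal tubule transcripts of the group, and OM HS14 replicate 10 had the fewest counts of all libraries. By the study's read mapping, OM HS14 replicate 10 also had the lowest share of exonic bases and the highest share of intronic bases. Proximal tubule sums were also low in OM HS14 replicate 8 (2876 CPM, the others 5943 to 8524 CPM) and OM HS21 replicate 11 (2826 CPM, the others 7182 to 8115 CPM). In the Cx, HS14 replicate 10 stood apart, with a proximal tubule sum of 11448 CPM against 15732 CPM or more and a thick ascending limb sum of 2838 CPM against 1568 to 1711 CPM. Its Slc12a3 level was 2137 CPM against 1042 to 1265 CPM and its collecting duct sum 1876 CPM against 934 to 1281 CPM. Without it the number of members called at Cx HS14 was 2, as with it.

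In the Cx, more of the members were called after 21 days than after 14 days. At HS14, 2 of the 8 members that passed the filter were raised and 0 were lowered, where 2.33% of all 14181 genes tested were called, 1.14% raised and 1.18% lowered. The libraries of 2 members (Thbd and F2r) lay entirely above LS and those of 0 entirely below, where 5.07% of all genes did not overlap, 2.71% above and 2.36% below. The count fell to 0 without Cx LS replicate 4 or Cx HS14 replicate 9, and to 1 without Cx LS replicate 1, 2, 3 or 5 or Cx HS14 replicate 8. At HS21, 5 of 8 were raised and 1 was lowered, where 39.4% of 14299 genes were called, 18.9% raised and 20.5% lowered. In 4 of the 8, the HS21 libraries lay entirely above the LS libraries, which held for 12% of all genes, and in 0 of the 8 did they lie entirely below, which held for 14.6%, so that 26.6% did not overlap in either direction. The median log2 ratio over the 8 members was 0.62 and that over all genes tested was 0.00. Fgg was below the filter in each of these comparisons.

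Total-count scaling in place of TMM moved the median of all genes by more than 0.1 in several comparisons. The median log2 ratio of all genes became 0.13 for Cx HS21 against LS, 0.13 for Cx HS21 against HS14, 0.27 for OM LS against Cx LS and -0.16 for the interaction. For Cx HS21 against LS, the split of all calls went from 2702 raised and 2936 lowered to 4401 raised and 1653 lowered. For Cx HS21 against HS14 it went from 935 raised and 1395 lowered to 2084 and 644, and for OM LS against Cx LS from 3051 and 2794 to 5546 and 1842. The direction of each member at Cx HS21 was the same with either scaling.

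**Figure D1:**
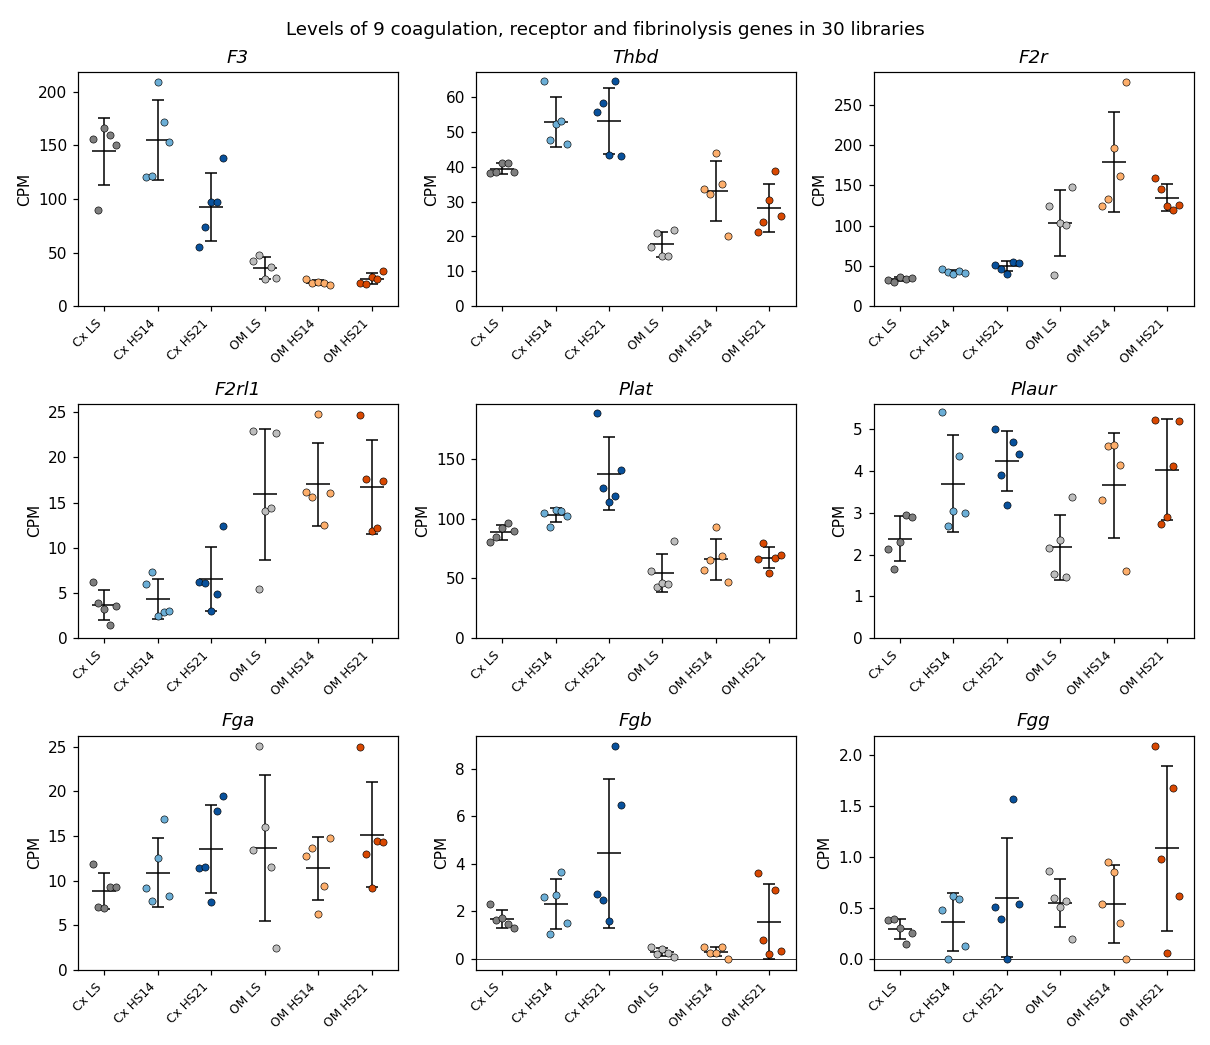
Level of each of the 9 genes in CPM (vertical axis, linear) in the 30 libraries by group, each point 1 library, with the group mean and SD as bars. In the Cx, F3 is lowest in HS21, whereas Thbd, F2r, Plat and Plaur lie above LS in all 5 HS21 libraries.

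F3 encodes tissue factor, the cell-surface initiator of coagulation (ENSRNOG00000011800, Rnor_6.0 chromosome 2, 225310624 to 225322272, plus strand). In Cx LS replicates 1 to 5 its level was 156, 89.7, 167, 160.2 and 151 CPM. In Cx HS14 replicates 6 to 10 it was 120.2, 121, 209, 172 and 153 CPM, and in Cx HS21 replicates 11 to 15 it was 54.8, 74.1, 97.7, 96.9 and 139 CPM. LS replicate 2 stood below the other LS libraries, so the HS21 libraries overlapped with LS although all 5 lay below the LS mean of 145 CPM and 2 of 5 lay below every LS library. The HS14 libraries spread around the LS values on both sides.

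F3 was the only member that was lower in the Cx at HS21, and the call was a narrow one. Its log2 ratio to LS was -0.65 ± 0.23 (adjusted P 0.0404). In bulk tissue, fewer cells that express a gene and less RNA per cell cannot be told apart. The call was lost without any 1 of Cx LS replicates 1, 3, 4 and 5 or Cx HS21 replicates 11, 12, 13 and 14, with log2 ratios from -0.67 to -0.49 and adjusted P from 0.0556 to 0.0961. It was also lost with total-count scaling (log2 ratio -0.52, adjusted P 0.0878) and kept by DESeq2 and by a fit of all 30 libraries together. At HS14 the log2 ratio was 0.10 ± 0.18 (adjusted P 0.845), and it became -0.0340 without Cx LS replicate 2 and -0.0323 without Cx HS14 replicate 8.

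Between the high-salt groups of the Cx, F3 was lower at 21 than at 14 days by a call that 9 of 10 left-out libraries removed. HS21 against HS14 gave a log2 ratio of -0.74 ± 0.23 (adjusted P 0.0490). The adjusted P rose to between 0.0513 and 0.113 without any 1 of Cx HS14 replicates 6 to 10 or Cx HS21 replicates 11 to 14, and it was 0.0275 without Cx HS21 replicate 15. The call was kept by DESeq2 and lost with RLE scaling (adjusted P 0.0521), total-count scaling (0.0735), no filter (0.0602) and in the fit of all 30 libraries (0.0537). In this comparison 16.2% of 14395 genes were called, 6.5% raised and 9.69% lowered, and of the 8 members tested 1 was raised (Plat) and 1 was lowered (F3). The libraries of 1 member, Plat, did not overlap, where 9.66% of all genes did not, 3.56% with HS21 above and 6.11% with HS21 below. Without Cx HS14 replicate 6, 7, 8 or 9 the number of members called was 0. It was 1 without Cx HS14 replicate 10 or Cx HS21 replicate 11, 12, 14 or 15, and without Cx HS21 replicate 13 it was 2, both raised.

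In the OM, F3 was lower than in the Cx before any change of diet. The OM LS libraries held 42.4, 48.1, 25.4, 36.5 and 26 CPM, all below the lowest Cx LS library. OM LS against Cx LS gave a log2 ratio of -2.02 ± 0.22 (adjusted P 7.59e-05), and -2.17 without OM LS replicate 2. In OM HS14 replicates 6 to 10 the level was 25.5, 21.3, 22.5, 21.4 and 19.6 CPM, and in OM HS21 replicates 11 to 15 it was 21.8, 20.7, 27.3, 25.5 and 33.3 CPM. Of the HS14 libraries, 4 of 5 lay below every OM LS library and replicate 6 lay within the LS range. The log2 ratios to OM LS were -0.69 ± 0.19 at HS14 (adjusted P 0.523) and -0.47 ± 0.20 at HS21 (adjusted P 0.405), neither of them called. Without OM LS replicate 2 they were -0.57 and -0.35.

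Thbd encodes thrombomodulin, the endothelial thrombin receptor that turns thrombin from clotting to the activation of protein C (ENSRNOG00000004687, Rnor_6.0 chromosome 3, 142748674 to 142752325, minus strand). Its Cx LS levels were 38.1, 38.3, 41.1, 41.1 and 38.5 CPM. The Cx HS14 levels were 64.6, 47.6, 52.3, 53.1 and 46.5 CPM, and the Cx HS21 levels were 55.7, 58.2, 43.4, 64.5 and 43 CPM. The LS libraries lay close together, and all 10 high-salt libraries lay above them, with HS21 replicates 13 and 15 nearest to the LS range. The high-salt libraries of the 2 time points overlapped.

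Thbd was called raised at both times in the Cx. The log2 ratio to LS was 0.41 ± 0.08 at HS14 (adjusted P 0.0270) and 0.42 ± 0.11 at HS21 (adjusted P 0.00854). The HS14 call was lost without any 1 of Cx LS replicates 1 to 5 or Cx HS14 replicates 8 and 9, with log2 ratios from 0.40 to 0.43 and adjusted P from 0.0543 to 0.0721. The HS21 call held in each of the 10 fits that left out 1 library. In the fit of all 30 libraries together Thbd was not called at HS14 (adjusted P 0.573) or at HS21 (adjusted P 0.0893). HS21 against HS14 gave a log2 ratio of 0.01 ± 0.13 (adjusted P 0.969).

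In the OM, Thbd had the smallest unadjusted P among the members at both times. The OM LS levels were 17, 20.9, 14.4, 14.4 and 21.9 CPM, all below the Cx LS libraries (log2 ratio -1.16 ± 0.12, adjusted P 6.27e-05, and -1.24 without OM LS replicate 2). The OM HS14 levels were 33.6, 32.1, 43.9, 35.1 and 20 CPM, and the OM HS21 levels were 21.3, 24.2, 30.3, 38.8 and 25.9 CPM. At each time 4 of 5 libraries lay above every OM LS library, the exceptions being HS14 replicate 10 and HS21 replicate 11.

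By edgeR Thbd was not called in the OM, and by other fits it was. Its log2 ratio was 0.90 ± 0.21 at HS14 (adjusted P 0.397) and 0.66 ± 0.18 at HS21 (adjusted P 0.130). DESeq2 called it at HS14 (adjusted P 0.0101) and at HS21 (adjusted P 0.0200), and so did the edgeR fit of all 30 libraries (adjusted P 0.0153 and 0.0282). Without OM LS replicate 2 the log2 ratios were 0.96 and 0.73, and without OM HS14 replicate 10 the first was 1.03. The log2 ratio of Thbd at HS21 was not shown to differ between the tissues (interaction 0.24 ± 0.22, adjusted P 0.634, and from 0.0941 to 0.34 with 1 library left out).

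F2r encodes protease-activated receptor 1, the main thrombin receptor of many cell types (ENSRNOG00000048043, Rnor_6.0 chromosome 2, 26118760 to 26135340, minus strand). A gene model of the small nuclear RNA 7SK lies within it on the same strand. In the Cx the LS libraries held 32.6, 30.1, 36.8, 33.2 and 34.6 CPM and the HS14 libraries held 46.2, 42.8, 40.6, 44.1 and 41.3 CPM. The HS21 libraries held 51.7, 45.9, 40.1, 55.1 and 54.2 CPM. All 10 high-salt libraries lay above the highest LS library, and HS21 replicate 13 was the one nearest to LS.

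At HS21, F2r had the smallest adjusted P of the members in the Cx. Its log2 ratio to LS was 0.35 ± 0.06 at HS14 (adjusted P 0.0170) and 0.56 ± 0.09 at HS21 (adjusted P 0.000675). Leaving out Cx LS replicate 4 or Cx HS14 replicate 9 removed the HS14 call, with adjusted P of 0.0505 to 0.0550 and log2 ratios of 0.35. The HS21 call held in all 10 fits with a library left out, with log2 ratios from 0.52 to 0.62. In the fit of all 30 libraries it was called at neither time, with adjusted P of 0.915 and 0.0854. From HS14 to HS21 the log2 ratio was 0.20 ± 0.09 (adjusted P 0.129), and it was called without Cx HS21 replicate 13 (0.27, adjusted P 0.0271).

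F2r was higher in the OM than in the Cx on the LS diet. The OM LS libraries held 124, 38.9, 104, 101 and 148 CPM, and replicate 2, the library with cortical transcripts, was the low value and near the Cx range. The log2 ratio of OM LS to Cx LS was 1.62 ± 0.28 (adjusted P 0.00108), and 1.81 without that library. The OM HS14 libraries held 125, 133, 197, 162 and 278 CPM, and the OM HS21 libraries held 159, 146, 124, 119.7 and 126 CPM. Both groups overlapped with LS. The highest value was in HS14 replicate 10, the library with the fewest counts and the lowest share of exonic bases. The log2 ratios to OM LS were 0.80 ± 0.34 at HS14 (adjusted P 0.836) and 0.39 ± 0.28 at HS21 (adjusted P 0.722). Without OM LS replicate 2 they were 0.59 and 0.18, and without OM LS replicate 2 and OM HS14 replicate 10 together the first was 0.37.

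F2rl1 encodes protease-activated receptor 2, which trypsin-like proteases and the tissue factor complex can activate, and thrombin does so poorly (ENSRNOG00000018003, Rnor_6.0 chromosome 2, 25222328 to 25235275, minus strand). Its Cx levels were low, at 1.47 to 6.19 CPM in LS, 2.43 to 7.27 CPM in HS14 and 3.04 to 12.4 CPM in HS21. The groups overlapped, and the highest HS21 value was in replicate 15. The log2 ratio at HS21 was 0.83 ± 0.40 (adjusted P 0.119), with 0.47 as the lowest value when 1 library was left out. At HS14 it was 0.22 ± 0.39, and left-out libraries moved it between -0.0483 and 0.49.

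The larger difference of F2rl1 was between the tissues. The OM LS libraries held 22.9, 5.47, 14.1, 14.4 and 22.7 CPM, and only replicate 2 overlapped with the Cx LS libraries. Its log2 ratio of OM LS to Cx LS was 2.11 ± 0.42 (adjusted P 0.00277), and 2.32 without OM LS replicate 2. In the OM high-salt groups F2rl1 held 12.6 to 24.8 CPM at HS14 and 11.8 to 24.7 CPM at HS21. The log2 ratios to OM LS were 0.10 ± 0.34 and 0.07 ± 0.36, and without OM LS replicate 2 they were -0.13 and -0.14. F2r and F2rl1 lie within 913013 bases of chromosome 2, with 8 other genes between their outer ends, 1 of them protein coding.

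Plat encodes tissue plasminogen activator, which makes plasmin from plasminogen on fibrin (ENSRNOG00000019018, Rnor_6.0 chromosome 16, 74098260 to 74122889, minus strand). The Cx LS libraries held 80, 84.4, 92.2, 96.5 and 89.2 CPM, and the HS14 libraries held 105, 92.5, 107, 106 and 102 CPM. The HS21 libraries held 189, 126, 114, 119 and 141 CPM. All 5 HS21 libraries lay above every LS and every HS14 library, with replicate 11 the highest, while HS14 replicate 7 lay within the LS range.

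Plat was called raised at HS21 but not at HS14. The log2 ratio to LS was 0.21 ± 0.06 at HS14 (adjusted P 0.0972), where DESeq2 called it (adjusted P 0.0341). At HS21 it was 0.64 ± 0.12 (adjusted P 0.00200), and it kept its call in every fit with 1 library left out and in the fit of all 30 libraries. From HS14 to HS21 the log2 ratio was 0.43 ± 0.12 (adjusted P 0.0374), the only member called raised between these times by edgeR. With total-count scaling F2r was called raised as well (0.32, adjusted P 0.0418), and in the fit of all 30 libraries the call of Plat was lost (0.42, adjusted P 0.157). It was also lost without any 1 of Cx HS14 replicates 6 to 9 or Cx HS21 replicate 15, with log2 ratios of 0.39 to 0.44 and adjusted P of 0.0676 to 0.0914.

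In the OM, Plat lay lower than in the Cx on the LS diet. The OM LS libraries held 56.3, 43, 46.3, 45.3 and 81.6 CPM, and replicate 5 reached into the Cx LS range. For OM LS against Cx LS the log2 ratio was -0.71 ± 0.16 (adjusted P 0.00588), and -0.65 without OM LS replicate 2. With total-count scaling it was -0.44 and not called (adjusted P 0.0908). The high-salt libraries of the OM held 46.9 to 92.9 CPM at HS14 and 54.7 to 79.4 CPM at HS21, both overlapping with LS, and neither log2 ratio (0.28 ± 0.22 and 0.31 ± 0.18) was called. Without OM LS replicate 2 they were 0.20 and 0.23, and with any 1 library left out they ran from 0.13 to 0.46 and from 0.23 to 0.49.

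Plaur encodes the urokinase receptor, which holds urokinase at the cell surface (ENSRNOG00000037931, Rnor_6.0 chromosome 1, 81328183 to 81344708, plus strand). The Cx LS libraries held 2.14, 1.65, 2.31, 2.94 and 2.89 CPM, and the HS14 libraries held 5.41, 2.69, 3.05, 4.36 and 2.99 CPM. The HS21 libraries held 5.02, 3.92, 3.18, 4.71 and 4.42 CPM. All 5 HS21 libraries and 4 of 5 HS14 libraries lay above the LS range, in which HS14 replicate 7 fell. These levels rest on 21 to 88 counts per library in the Cx.

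The log2 ratio of Plaur to LS was 0.62 ± 0.24 at Cx HS14 (adjusted P 0.199) and 0.83 ± 0.20 at Cx HS21 (adjusted P 0.00643). The HS21 call held in every fit with 1 library left out and in the fit of all 30 libraries. In the OM the LS libraries held 1.46 to 3.38 CPM, HS14 held 1.61 to 4.62 CPM and HS21 held 2.73 to 5.22 CPM, with overlap. Its log2 ratios there were 0.76 ± 0.33 at HS14 (adjusted P 0.839) and 0.89 ± 0.29 at HS21 (adjusted P 0.222). Without OM LS replicate 2 they were 0.66 and 0.79, and without OM HS14 replicate 10 the first was 0.93. Between the tissues on LS the log2 ratio was -0.14 ± 0.26 and without OM LS replicate 2 it was -0.0577. It ran from -0.35 to -0.0228 with any 1 library left out, and with total-count scaling its sign was opposite (0.12).

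The genes Fga, Fgb and Fgg encode the alpha, beta and gamma chains of fibrinogen, which are joined in equal numbers in the plasma protein. They lie side by side on chromosome 2 of Rnor_6.0, from 181987217 to 182038178, in 50962 bases with 0 other annotated genes among them. Fgg (ENSRNOG00000025074, 181987217 to 181994514) and Fga (ENSRNOG00000024848, 182006242 to 182013763) are on the plus strand, and Fgb (ENSRNOG00000007092, 182027115 to 182038178) is on the minus strand. Levels of different genes are compared per length, as CPM per kilobase of the deposited gene length. On that scale Fga stood above the other chains, at 5.63 times Fgb and 16.9 times Fgg in Cx LS.

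Fgb was the chain with a call in the Cx. Its LS libraries held 2.29, 1.65, 1.70, 1.47 and 1.28 CPM, its HS14 libraries 2.60, 1.02, 2.67, 3.66 and 1.49 CPM, and its HS21 libraries 2.73, 2.46, 1.59, 8.96 and 6.46 CPM. At HS21, 4 of 5 libraries lay above the LS range, replicates 14 and 15 far above it, and replicate 13 lay within it. The log2 ratio at HS21 was 1.40 ± 0.44 (adjusted P 0.0249). Without Cx HS21 replicate 14 it was 0.99 (adjusted P 0.0660), and without replicate 15 it was 1.25 (adjusted P 0.0561). The call was also lost without Cx LS replicate 2, 4 or 5 (lowest adjusted P 0.0501) and in the fit of all 30 libraries (adjusted P 0.0994), and DESeq2 kept it. At HS14 the log2 ratio was 0.46 ± 0.32 (adjusted P 0.514), and from 0.22 to 0.64 with 1 library left out, lowest without Cx HS14 replicate 9.

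Fga was not called in the Cx. Its Cx LS libraries held 11.8, 7.06, 6.94, 9.33 and 9.25 CPM and its Cx HS21 libraries held 11.4, 11.5, 7.60, 17.9 and 19.4 CPM. Replicates 14 and 15 of HS21 were again the high ones, and the other 3 lay within the LS range. The log2 ratio was 0.61 ± 0.25 (adjusted P 0.0701) at HS21. It was called without Cx LS replicate 1 or Cx HS21 replicate 13 (log2 ratios of 0.73 to 0.76, adjusted P of 0.0147 to 0.0479), by DESeq2 (adjusted P 0.0383) and with total-count scaling (adjusted P 0.0324). At HS14, with 7.71 to 16.9 CPM, it was 0.29 ± 0.23 (adjusted P 0.564), and from 0.0783 to 0.42 with 1 library left out, again lowest without Cx HS14 replicate 9.

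Fgg was near the limit of detection in the Cx, with 2 to 5 counts in the LS libraries. The Cx LS libraries held 0.147 to 0.392 CPM and the Cx HS21 libraries held 0.508, 0.398, 0, 1.57 and 0.544 CPM. Replicate 14 of HS21 was the highest, with 24 counts, and replicate 13 had 0. Fgg was below the filter here, and a two-sided exact permutation test of mean log2 CPM over 252 regroupings, whose smallest possible P is 0.00794, gave a difference of 0.40 (exact P 0.532). The edgeR log2 ratio was 1.01 without a filter (adjusted P 0.3265) and 1.02 in the fit of all 30 libraries (adjusted P 0.415), neither of them called.

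In the OM, Fga varied widely from library to library. The LS libraries held 13.4, 25.1, 16, 11.6 and 2.44 CPM, so that replicate 2 was the highest and replicate 5 the lowest. The log2 ratio of Fga in OM LS to Cx LS was 0.62 ± 0.45 (adjusted P 0.303). It was called without OM LS replicate 5 (0.89, adjusted P 0.0158) and was 0.27 without OM LS replicate 2. At HS14 and HS21 in the OM Fga held 6.26 to 14.8 CPM and 9.13 to 25 CPM. Its log2 ratio to OM LS was -0.27 ± 0.48 at HS14, with 0.0530 without OM LS replicate 2, and 0.15 ± 0.48 at HS21, with 0.48 without OM LS replicate 2 and -0.12 without OM LS replicate 5.

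Fgb was nearly absent from the OM on the LS diet. The OM LS libraries held 0.492, 0.171, 0.382, 0.254 and 0.0677 CPM, from 1 to 8 counts each, and all lay below the Cx LS libraries. The log2 ratio of OM LS to Cx LS was -2.55 ± 0.38 (adjusted P 0.000453), and -2.45 without OM LS replicate 2. The OM HS21 libraries held 3.60, 0.770, 0.189, 2.87 and 0.310 CPM, of which 3 of 5 lay above every OM LS library and replicates 11 and 14 stood out. Fgb did not pass the filter in either OM comparison with LS, and the difference of mean log2 CPM at HS21 was 1.51 (exact permutation test, two-sided, P 0.0952). In the fit of all 30 libraries, where it did pass, the log2 ratio was 2.45 (adjusted P 0.0417), and without a filter in the OM fit it was 2.46 and not called (adjusted P 0.307). At OM HS14 Fgb held 0 to 0.499 CPM.

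Fgg in the OM held 0.203 to 0.861 CPM in LS, 0 to 0.955 CPM in HS14 and 0.0630 to 2.09 CPM in HS21. The HS21 libraries with the most Fgg were replicates 11 and 14, at 36 and 28 counts. The difference at HS21 was 0.52 (exact permutation P 0.468), where edgeR without a filter gave a log2 ratio of 0.98 (adjusted P 0.669), and that of OM LS to Cx LS was 0.61 (exact permutation P 0.0794). Per length and from group sums, the ratio of Fga to Fgb was 53.3 in OM LS and 10.4 in OM HS21. In the Cx it was 5.63 in LS and 3.25 in HS21. The OM ratios rest on few Fgb counts, 21 in all in OM LS and 129 in OM HS21. Of the latter, replicates 11 and 14 held 62 and 48.

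No member was called by edgeR after either time of the diet in the OM. At HS14, 0 of 7 members tested were called, where 0.00694% of 14417 genes were, which is 1 gene, and the libraries of 0 of 7 lay apart, where those of 1.53% of all genes did, 1.04% above and 0.486% below. Among the 7, the unadjusted P was under 0.05 for 4, with 3 higher and 1 lower, where it was for 617 higher and 209 lower of all genes. DESeq2 and the fit of all 30 libraries each called 1, Thbd, where they called 109 and 159 of all genes. At HS21, 0 of 7 were called, where 0.769% of 14555 genes were, and the libraries of 0 of 7 lay apart, where those of 3.48% of all genes did, 2.44% above and 1.04% below. There the unadjusted P was under 0.05 for 3, with 2 higher (Thbd and Plaur) and 1 lower (F3), where it was for 1012 higher and 625 lower of all genes. DESeq2 called 1, Thbd, where it called 701 of all genes. The fit of all 30 libraries, in which Fgb passed the filter, called Thbd and Fgb, where it called 506 of all genes. The edgeR count stayed at 0 without any 1 library in either comparison.

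Between the tissues on LS, 6 of 8 members tested differed, where 40.9% of 14295 genes did, 21.3% higher and 19.5% lower in the OM. F2r and F2rl1 were higher in the OM, and F3, Thbd, Plat and Fgb were higher in the Cx. The 6 calls were the same in DESeq2 and in the fit of all 30 libraries. The libraries of the tissues did not overlap for F2r, F3, Thbd and Fgb, 1 of them above and 3 below, where 29% of all genes did not overlap, 13.3% above and 15.7% below. For the difference between the tissues in the response at HS21, 0 of 9 members were called by edgeR, where 0.665% of 15194 genes were. The unadjusted P of that interaction was under 0.05 for 0 of 9 members, where it was for 1001 higher and 1366 lower of all genes. DESeq2 and the fit of all 30 libraries called 0 members, where they called 556 and 27 of all genes. No response in the Cx was thus shown to differ from that in the OM.

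**Figure D2:**
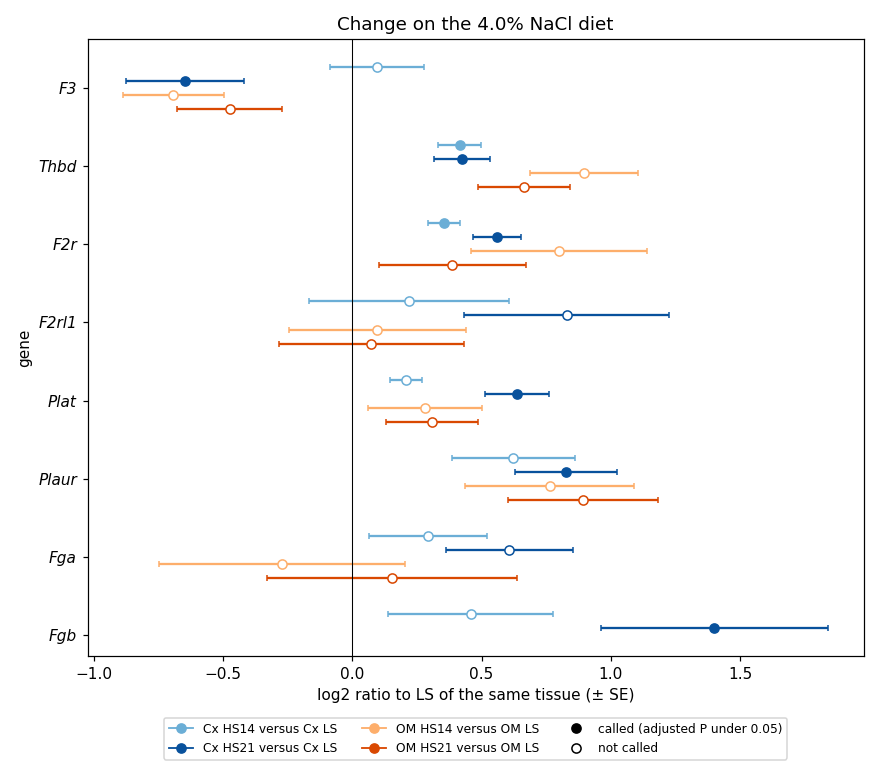
Log2 ratio to the LS group of the same tissue (horizontal axis, bars ± SE, 5 libraries in each group) for the 8 genes that passed the filter in the Cx and the 7 that did in the OM. Filled points are called at an adjusted P under 0.05, as for F3 (-0.65) and Fgb (1.40) in Cx HS21, and open points are not called.

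The order of the members per length differed between the tissues, and in the Cx it was the same in LS and HS14. In Cx LS the means were 79.4 CPM per kilobase for F3, 34.8 for Plat, 10.8 for Thbd and 9.78 for F2r. Fga (3.26), Plaur (2.33), F2rl1 (1.23), Fgb (0.579) and Fgg (0.193) followed. Thbd stood above F2r in 5 of 5 libraries but their ranges overlapped, as did those of Fga with Plaur, Plaur with F2rl1 and F2rl1 with Fgb. F3 was above Plat without overlap in Cx LS and Cx HS14. In Cx HS21 Plat had a mean of 54.1 and F3 of 50.7, with Plat the higher in only 2 of 5 libraries, so their order there was within the spread.

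In the OM, F2r headed the order in all 3 groups. In OM LS the means were 30.2 CPM per kilobase for F2r, 21.4 for Plat and 19.6 for F3, and the ranges of these 3 overlapped. F2rl1 (5.36), Fga (5.03) and Thbd (4.86) came next with overlapping ranges, followed by Plaur (2.12), Fgg (0.355) and Fgb (0.0944). In OM HS21 F2r had a mean of 39.4, Plat of 26.5, F3 of 14.1 and Thbd of 7.69, and no neighbours among these 4 overlapped.

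The direct partners of the members gave a mixed picture in the Cx at HS21. Of 36 listed coagulation, anticoagulant, fibrinolysis and other protease-activated receptor genes, 35 were in the table (Kng1 taken as the entry Kng1l1) and 20 were tested, of which 5 were raised and 5 were lowered, near the 18.9% raised and 20.5% lowered of all genes. Their median log2 ratio was 0.08 and that of all genes 0.00. The lists that follow stand beside the same shares at Cx HS21, and beside 0.639% raised and 0.131% lowered of all genes at OM HS21. In the fit of all 30 libraries, which called 2280 genes at Cx HS21 in place of 5638, 3 genes of this pathway list were raised and 1 was lowered. Among them Plau, which encodes urokinase, the ligand of the Plaur receptor, was lower (-0.65 ± 0.10, adjusted P 0.000460), with means of 590.4 CPM in LS and 378 CPM in HS21. The protein C receptor gene Procr, a partner of thrombomodulin, was raised at HS14 (1.27, adjusted P 0.00992) and at HS21 (1.16, adjusted P 0.00206), and it was the only 1 of the 20 called at HS14. Its HS14 call was lost in the fit of all 30 libraries.

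Further calls of that list at Cx HS21 fell on both sides of clotting. Of the 8 fibrinolysis genes tested 3 were raised, among them Anxa2 (1.01) and S100a10 (0.97), whose products form a cell-surface site for plasminogen activation. The cofactor gene F8 (0.37) was raised as well. The protein C gene Proc (-0.39), the antithrombin gene Serpinc1 (-0.68), the factor XIII subunit gene F13b (-1.31) and Vwf (-0.55), the platelet adhesion factor, were lower. The calls of F8, Proc, Serpinc1, F13b and Vwf were lost in the fit of all 30 libraries. F2, the prothrombin gene, had a log2 ratio of 0.69 (adjusted P 0.203) and Tfpi, the tissue factor pathway inhibitor gene, of -0.08 (adjusted P 0.450). Plg, the plasminogen gene, was near 0 in both tissues, with a mean of 0.0308 CPM in Cx LS and 0.0541 CPM in Cx HS21. F2rl2 and F2rl3, the genes of protease-activated receptors 3 and 4, had means of 0.182 and 0.0598 CPM in Cx LS and were not tested in the Cx. In the OM 0 of 20 of these genes were called by edgeR at either time, with 1 at HS14 and 2 at HS21 under an unadjusted P of 0.05. DESeq2 and the fit of all 30 libraries each called 1 of them at either time.

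Genes of fibrinogen-like proteins and fibrinogen receptors were a further list. At Cx HS21, 5 of the 7 tested were raised, the integrin genes Itgam (2.27), Itgb2 (1.78) and Itgax (1.15), the fibrinogen-like prothrombinase gene Fgl2 (1.25) and Icam1 (0.62), the last named after its value was seen. At OM HS21, 4 of 7 were raised, which were Itgam (2.27), Fgl2 (1.90), Itgax (1.46) and Itgb2 (1.22), with 5 raised by DESeq2 and 5 in the fit of all 30 libraries. In the list of acute-phase and interleukin-6 signalling genes, to which the fibrinogen genes belong by their known regulation in liver, 9 of 11 tested were raised at Cx HS21 and 0 were lowered, with 7 raised in the fit of all 30 libraries. The largest log2 ratios there were those of Lcn2 (2.91), C3 (2.45), Socs3 (1.59) and Cp (1.24). In OM HS21, 1 of 12 was raised, C3 (2.01), with 3 raised by DESeq2 and 3 in the fit of all 30 libraries. Il6 itself had means of 0.0615 CPM in Cx LS and 0.203 CPM in Cx HS21.

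Markers of leukocytes were raised in the Cx. At Cx HS21 all 12 macrophage and general leukocyte markers were raised, 11 of them also in the fit of all 30 libraries, with Csf1r the most abundant in LS. Their summed level was 229, 188, 235, 205 and 201 CPM in Cx LS, 365, 336, 333, 396 and 239 CPM in Cx HS14, and 603, 487, 341, 769 and 1157 CPM in Cx HS21. HS21 replicate 13 was the lowest of its group and replicates 14 and 15 the highest. In Cx HS21 the same libraries were the lowest and the highest for Fgb, Fga, Fgg and F2r. They were not for F3, Thbd, Plat, Plaur and F2rl1. In OM HS21 the sum was 803, 486, 461, 676 and 791 CPM, above the 106 to 406 CPM of OM LS, and 2 of the 12 were called raised by edgeR, 10 by DESeq2 and 7 in the fit of all 30 libraries. In the same OM HS21 libraries Fgb was at 3.60, 0.770, 0.189, 2.87 and 0.310 CPM. Of the 6 T cell markers 4 were tested and 4 raised, with sums of 33.5, 20, 9.67, 44.2 and 69.4 CPM in Cx HS21 and 3.47 to 6.32 CPM in Cx LS, and Lck was the most abundant. Of the 7 neutrophil markers 3 were tested and 3 raised, with sums of 16.7, 15.3, 9.05, 25.3 and 31.9 CPM in Cx HS21 and 2.25 to 3.85 CPM in Cx LS. Csf3r was the most abundant of these, and the defining markers Mpo and Elane were at 0 in Cx LS.

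Markers of the liver and of platelets were checked as well. Of 9 hepatocyte markers 3 were tested and 0 were called at Cx HS21 by edgeR, with 1 under an unadjusted P of 0.05 (lower) and 0 called by DESeq2 or by the fit of all 30 libraries. Their sum was 122, 113, 114, 138 and 144 CPM in Cx LS and 128, 111, 112, 108 and 119 CPM in Cx HS21, most of it Tf, and Ttr, Apoa2 and Serpina1 were at 0 in Cx LS. Of 7 platelet and megakaryocyte markers 3 were tested and 0 were called by edgeR, by DESeq2 or in the fit of all 30 libraries, with 0 under an unadjusted P of 0.05 and sums of 19.6 to 24.1 CPM in Cx LS and 21.9, 23.1, 23.4, 28.6 and 30.2 CPM in Cx HS21. Itga2b was the most abundant and Gp1bb was at 0 in Cx LS. The 5 urothelial markers summed to less than 1 CPM in each Cx library, and 0 of them were tested.

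At Cx HS21, edgeR and DESeq2 called markers of endothelium, podocytes and mesangial cells, and the fit of all 30 libraries called few. That fit called 0 endothelial, 0 podocyte and 2 mesangial, pericyte and fibroblast markers at Cx HS21. Of 10 endothelial markers 3 were raised at Cx HS21, with sums of 832, 831, 877, 883 and 859 CPM in LS and 818, 899, 926, 1039 and 1008 CPM in HS21, Kdr being the most abundant in LS. Of 5 podocyte markers 4 were raised, with sums of 588, 663, 663, 664 and 649 CPM in LS and 850.1, 827, 769.5, 722 and 719 CPM in HS21, and Podxl was the most abundant. Of 8 mesangial, pericyte and fibroblast markers 3 were raised, with sums of 421 to 589.9 CPM in LS and 495 to 742 CPM in HS21, and Col3a1 was the most abundant in LS.

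Tubular markers split by segment. Of 7 proximal tubule markers 6 were lowered at Cx HS21, with sums of 16162, 16531, 15520.2, 17159 and 16211 CPM in LS and 9514, 9077, 12333, 10181 and 9446 CPM in HS21, Slc34a1 being the most abundant. In HS14 the sum was 15732 to 15919.9 CPM in 4 libraries and 11448 CPM in replicate 10. Of 4 thick ascending limb markers 3 were raised, with sums of 2277 to 3103 CPM at HS21 and Umod the most abundant. Slc12a3, the 1 distal convoluted tubule marker, was raised from a mean of 1068 to 1905 CPM. Of 5 collecting duct markers 4 were raised, with sums of 897 to 1024 CPM in LS and 1272 to 2061 CPM in HS21 and Slc4a1 the most abundant. Of 8 tubular injury markers 7 were tested, 5 raised and 1 lowered, with sums of 504 to 698 CPM in LS and 699.99 to 1389.5 CPM in HS21, Krt8 the most abundant in LS and Krt20 at 0 there. In the fit of all 30 libraries 0 proximal tubule markers and 0 of the 1 distal convoluted tubule marker were called, with 2 thick ascending limb, 3 collecting duct and 3 injury markers raised and 1 injury marker lowered. The part of any of these cell types in the results on the members was not tested.

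The genes most like each called member were sought over the 15 Cx libraries, by the mean absolute difference of log2 CPM after centring each gene on its LS mean, among 13346 protein-coding genes. For F2r they were Gypc (difference 0.0710), Prkcd and Tacc1. For Thbd they were Ak1 (0.116), Ednrb and, in the next place, F2r itself (0.124), the only pair of members found in this way. For Plat they were Ptpro (0.0916), Olfm1 and Map7d1, and for Plaur they were Adgrg6 (0.177), Cerk and Rgs2. For F3 they included Tsc22d1 (0.216) and Rcan1, against a mean deviation of 0.408 of F3 itself from LS. For Fgb they were Il2rb (0.255), Dock10 and Lcp1, against a mean deviation of 0.640 of Fgb itself.

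Promoter windows from RefSeq (build GRCr8) were available for 5 of the 9 members, F2r, Plaur, Fga, Fgb and Fgg, and not for F2rl1, F3, Thbd and Plat. Each window holds 250 bases before and 50 after a gene start, Fga has 2 starts, and both strands were searched for 6 motifs. CTGGGAA, the interleukin-6 response element known from fibrinogen promoters, was found in 2 members, at -169 and -61 in Fgg and at -152 in Fgb, and in 11.3% of all 33469 windows. Its shorter form CTGGGA, added after the data were seen, was found in all 5 members and in 30.3% of all windows, and every CTGGGAA contains it. The fibrinogen stretches from base -180 to -1 are shown because these 3 genes are neighbours that form 1 protein. Capitals mark CTGGGA on the gene strand, each sequence runs 5′ to 3′ on the strand of its gene, and Fgg is at chr2:170652903-170653082 (+), Fga at chr2:170671989-170672168 (+) and Fgb at chr2:170700876-170701055 (-).
Fgg: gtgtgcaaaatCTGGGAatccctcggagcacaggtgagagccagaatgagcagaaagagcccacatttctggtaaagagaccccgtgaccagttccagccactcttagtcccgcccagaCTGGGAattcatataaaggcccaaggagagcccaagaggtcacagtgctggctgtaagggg
Fga: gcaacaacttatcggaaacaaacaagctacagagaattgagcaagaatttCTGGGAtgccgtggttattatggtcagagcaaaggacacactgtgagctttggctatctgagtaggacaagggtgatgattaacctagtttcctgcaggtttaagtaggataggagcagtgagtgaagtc
Fgb: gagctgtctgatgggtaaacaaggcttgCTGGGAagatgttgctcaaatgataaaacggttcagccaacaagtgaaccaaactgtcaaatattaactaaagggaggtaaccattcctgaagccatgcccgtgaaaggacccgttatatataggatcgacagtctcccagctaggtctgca

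Of the other motifs, AP-1 was found in members inside and outside the fibrinogen cluster. TGANTCA, the AP-1 motif, was found in 3 members, at -83 in Plaur, -194 in F2r and -234 in Fgb, and in 7.33% of all windows. TTCNNNGAA, the STAT motif, was found in Fga and Fgb and in 8.87% of windows, TATAAA in Fgg at -50 and in 14.2%, and GGGCGG, the Sp1 GC box, in F2r, Fgg and Fga and in 33.1%. None of the matches of these 4 motifs in the members overlapped with another motif. The stretches around the AP-1 match of the 2 receptor genes called in the Cx are shown with that match in capitals, F2r at chr2:28620737-28620803 (-) and Plaur at chr1:89181250-89181316 (+). These matches describe the letters only.
F2r: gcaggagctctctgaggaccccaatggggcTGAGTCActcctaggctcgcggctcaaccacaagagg
Plaur: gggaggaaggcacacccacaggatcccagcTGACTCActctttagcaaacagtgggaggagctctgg

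**Figure D3:**
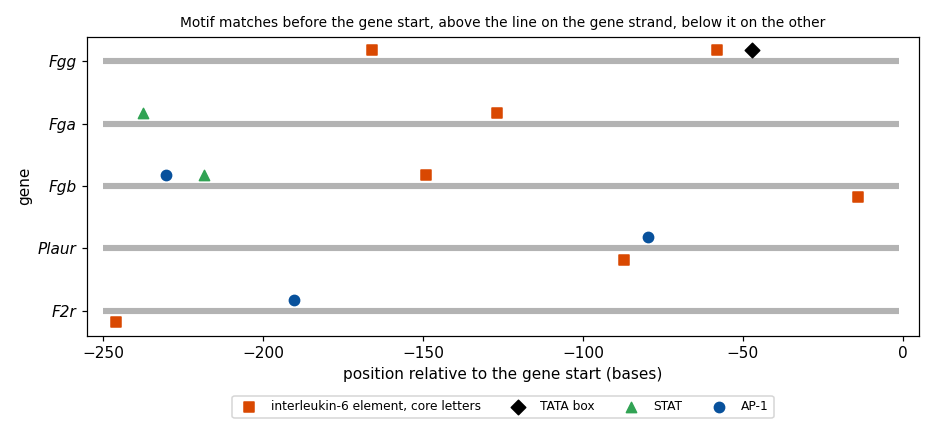
Positions of motif matches in bases relative to the gene start (horizontal axis, the start at 0) in the promoter windows of 5 members, above the grey line for the gene strand and below it for the opposite strand. The core letters CTGGGA are marked in all 5, the AP-1 motif in Fgb, Plaur and F2r, the STAT motif in Fga and Fgb and the TATA box in Fgg.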

How the data were processed

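Poly(A) RNA libraries of rat kidney Cx and OM were analysed from the deposited table, which holds raw read counts per gene (counts) as the authors made them with HISAT2 2.0.5 and featureCounts 1.5.0-p3 on Rnor_6.0. The deposited gene_length column, in bases, gave levels per kilobase. The table also holds the authors' FPKM values, group means and DESeq2 comparisons (log2 fold changes and P-values), which were not used. A check of all 60 pairs of libraries within groups found no copied library.

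Groups were taken from the labels. edgeR 4.0.16 in R 4.3.3 was run on the libraries compared, with filterByExpr (minimum count 10, minimum total 15), TMM scaling and the quasi-likelihood F-test, and P-values were adjusted over all genes tested. CPM used TMM factors of all 30 libraries, and log2 CPM a prior count of 2. A member below the filter was tested by a two-sided exact permutation test. The calls were checked on simulated data, in which 200 genes were given a log2 ratio of 1. Of these, 72% were recovered for Cx HS21 against LS and 47.5% for OM HS21 against LS. Among the calls, 4.64% and 2.06% were false. Figures and tables used Python 3.11.15, pandas 2.3.3, scipy 1.17.1 and matplotlib 3.10.9.

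Alternatives were the DESeq2 1.42.0 Wald test, RLE and total-count scaling, no filter, 1 fit of all 30 libraries, each library left out, OM LS replicate 2 and OM HS14 replicate 10 left out together, the replicate number as a block, and motifs on the gene strand only.

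The members and lists were chosen with earlier results of these data known. All 9 members were named. From each list of pathway genes, called genes were named, from at most the 4 with the largest log2 ratio in the Cx at HS21, beside Plau, Plg, F2, Tfpi, Procr and the most abundant gene of each marker list. For each member called at Cx HS21, names were taken from the 3 protein-coding genes most like it. The listed symbol Kng1 was matched to the entry Kng1l1, which may not be the same gene. The listed symbols Kng2 and Serpina3n were not in the table and were not analysed.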

Additional observations from a re-analysis of the deposited data

Results flagged for a closer look

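Over 54 gene-by-group tests of the highest or lowest library, 1 library lay farther from the others than the critical gap of Dixon's test for 5 libraries. F3 in Cx LS replicate 2 was the lowest at 89.7 CPM, where the other 4 Cx LS libraries held 151 to 167 CPM. Chance alone marks about 1 in 20 groups. Without this library the log2 ratio of F3 at Cx HS21 to LS was -0.78 (adjusted P 0.0151), and with it -0.65 (adjusted P 0.0404).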

How the results depend on the processing

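The number of members called changed as follows. In the Cx at HS14 DESeq2 called 3 (all raised) and the fit of all 30 libraries 0, in place of 2. In the Cx at HS21 DESeq2 called 7 (6 raised and 1 lowered), total-count scaling called 6 (6 raised and 0 lowered) and the fit of all 30 libraries 3 (2 raised and 1 lowered), in place of 5 raised and 1 lowered. Between Cx HS21 and HS14, RLE scaling and the fit without a low-count filter each called 1 (raised), total-count scaling 2 (both raised) and the fit of all 30 libraries 0, in place of 1 raised and 1 lowered. In the OM at HS14 DESeq2 and the fit of all 30 libraries each called 1, and at HS21 DESeq2 called 1 and the fit of all 30 libraries 2, in place of 0. For OM LS against Cx LS total-count scaling called 5 (2 raised and 3 lowered) in place of 6. Calls over all genes moved as well. At Cx HS14 they went from 330 to 921 with DESeq2 and 19 in the fit of all 30 libraries, at Cx HS21 from 5638 to 5875 and 2280, and between these groups from 2330 to 3279 and 429. The call lost between Cx HS21 and HS14 with RLE scaling or without a filter was that of F3. The fit of all 30 libraries shares its dispersion over both tissues and also tests a different set of genes. For none of these changes was the cause tested.

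With 1 library left out, the number called ranged from 0 to 2 for Cx HS14, 4 to 6 for Cx HS21, 0 to 2 for Cx HS21 against HS14 and 6 to 7 for OM LS against Cx LS, and was 0 throughout for OM HS14, OM HS21 and the interaction. Of 640 values with a library left out, 571 kept their direction and side of the threshold, 36 lost and 4 gained a call, and 29 changed sign. Of 299 values under the other alternatives these numbers were 275, 12, 8 and 4.

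No value that changed sign was called. Left-out libraries moved the log2 ratio of F3 at Cx HS14 from -0.0340 to 0.17, of F2rl1 at Cx HS14 from -0.0483 to 0.49, of Thbd at Cx HS21 against HS14 from -0.0736 to 0.0846 and of F2rl1 at OM HS14 from -0.13 to 0.27. They moved Fga at OM HS14 from -0.54 to 0.0530, F2rl1 at OM HS21 from -0.14 to 0.24 and Fga at OM HS21 from -0.12 to 0.48. For the interaction they moved Plaur from -0.0569 to 0.27 and Fgg from -0.42 to 0.71. Without OM LS replicate 2 and OM HS14 replicate 10 together, F2rl1 at OM HS14 was -0.11. Total-count scaling gave Plaur 0.12 for OM LS against Cx LS and -0.0624 for the interaction, and the replicate block gave Fgg 0.0801 for the interaction. The cause was not tested.

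The labels do not say whether equal replicate numbers in the Cx and OM are the same rat, and the methods say only that the kidneys, 5 for each group, were divided into both tissues. After group means were removed, the correlation of libraries with equal numbers ran from -0.0709 to 0.439, was over 0.1 in 10 of 15 pairs and was the highest with its own number in 13 of 15. It was over 0.1 in 2 of 5 LS, 3 of 5 HS14 and 5 of 5 HS21 pairs, the last from 0.238 to 0.439. With the number as a block, 6 members (2 raised and 4 lowered) were called for OM LS against Cx LS and 0 for the interaction, with 5011 in place of 5845 and 94 in place of 101 calls over all genes.

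On the gene strand only, CTGGGA was found in 3 members in place of 5 and in 16.8% of all windows. This motif was chosen after seeing the data. GGGCGG was found there in 1 member in place of 3 and in 21.9% of all windows. Fgg in both tissues and Fgb in the OM rest on few counts, and their absence of a call says little. Plaur also rests on few counts, but it was called at Cx HS21 with 46 to 79 counts per library. At OM HS21, where it was not called, it had 39 to 90 counts. The part of depth in these results was not tested. With 5 libraries in each group and more spread in the OM than in the Cx, a missing call in the OM does not show that a level did not change. On simulated data with a log2 ratio of 1, 47.5% of the changed genes were recovered at OM HS21 and 72% at Cx HS21. The changed genes were drawn at random from all genes tested. Except for Fgb at Cx HS21, the members tested in these comparisons had log2 ratios smaller in size than 1. These shares are therefore not recovery rates for the members.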
